A study of Rattus norvegicus with 9 samples.

Results

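The genes described here are 9 chemokine ligands known from activated mast cells (MCs), namely Ccl1, Ccl2, Ccl3, Ccl4, Ccl5, Ccl7, Cxcl1, Cxcl2 and Cxcl10, matched by symbol among the 38490 gene rows listed in each of 9 RNA-seq samples. Of the 9 genes, 7 had an expression value and 2, Ccl5 and Cxcl1, were listed without a value in every sample. All samples came from RBL-2H3, a line derived from a rat basophilic leukemia that stands in for MCs, so each value belongs to a single tumor-derived line grown in culture and not to tissue MCs. In the 3 IgE/DNP samples the high-affinity IgE receptor was loaded for 12 h with anti-DNP IgE at 50 ng/mL, and DNP-HSA at 100 ng/mL, the antigen that crosslinks it, was then present for 4 h. The 3 PF samples received the same IgE and antigen and were pretreated for 1 h with PF, a treatment that the labels do not identify. Their antigen exposure is given as 4 h in one label field, and as 4, 5 and 6 h for replicates 1, 2 and 3 in another. The 3 Ctrl samples are called untreated in one field, while the protocol field gives sensitization and stimulation for every sample, so whether Ctrl cells carried IgE is not settled. Nothing in the labels says that replicates came from separate cultures, so p-values measure only the spread between these samples, which may be technical.

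Chemokines are small secreted proteins that bind G protein-coupled receptors on leukocytes and draw them along a gradient. CC ligands such as Ccl2 and Ccl7 mainly attract monocytes, eosinophils and T cells, the CXC ligands Cxcl1 and Cxcl2 attract neutrophils, and Cxcl10 is an interferon-inducible ligand for activated T cells. In MCs, crosslinking of the IgE receptor raises calcium and activates MAP kinases, and the factors NFAT, NF-kB and AP-1 then drive the transcription of cytokine and chemokine genes.

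Levels are given in FPKM, a count of fragments scaled by gene length and by sequencing depth, which allows genes to be compared per unit of length. The 18006 genes with a value summed to between 573023 and 630069 FPKM per sample, with the 3 PF samples (610206 to 630069) above all others. How many reads lie behind each sample is unknown. The cells carried MC transcripts in every group: of 15 MC markers, 13 had a value and all 13 were at 1 FPKM or more in each sample, with a summed level of 5458 to 5824 FPKM. The proteoglycan gene Srgn was the most abundant of them, and the tryptase genes Tpsab1 and Tpsb2 were listed without a value.

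Only 3 of the 9 chemokine genes reached a mean of 1 FPKM in any group, and they were Ccl2, Cxcl10 and Ccl7. Ccl2, or MCP-1, the main ligand of the monocyte receptor CCR2, was by far the most abundant, with 224 ± 16.0 FPKM in Ctrl, 677 ± 30.8 FPKM in IgE/DNP and 273 ± 24.6 FPKM in PF samples (SD, n = 3). Cxcl10 came next in each group, at 3.75 ± 0.0987, 2.58 ± 0.513 and 1.11 ± 0.471 FPKM in the same order. Ccl7, a ligand of CCR1, CCR2 and CCR3 encoded beside Ccl2, had 0.780 ± 0.175, 1.97 ± 0.441 and 0.427 ± 0.175 FPKM. Cxcl10 and Ccl7 did not overlap in Ctrl or in PF samples, whereas their ranges overlapped in IgE/DNP samples.

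**Figure D1:**
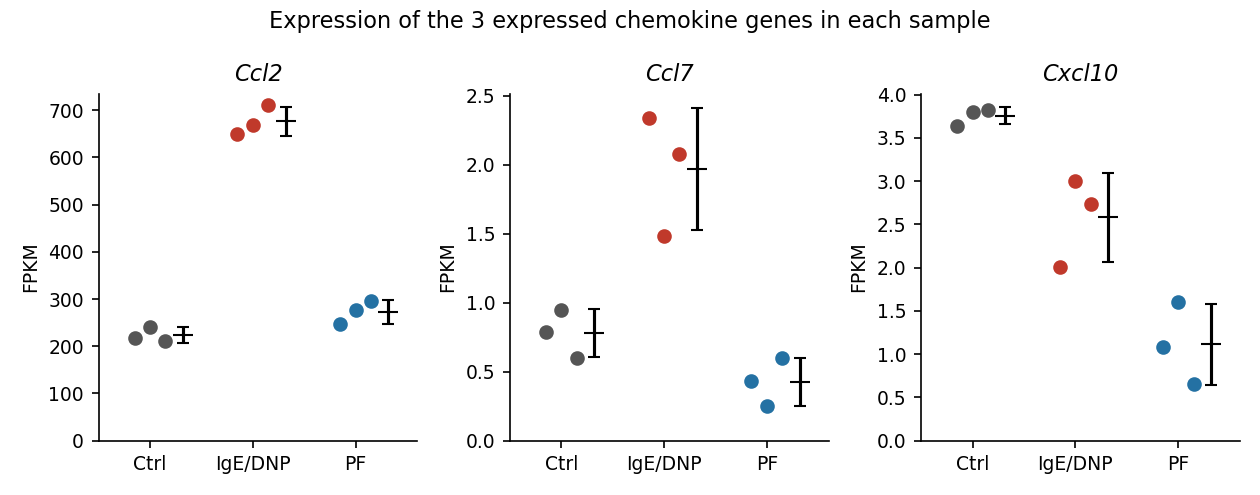
FPKM (y axis, from 0) of Ccl2, Ccl7 and Cxcl10 in each of the 9 samples, with replicates 1 to 3 from left to right in each group and the group mean ± SD beside them. Ccl2 and Ccl7 were highest in the 3 IgE/DNP samples, whereas Cxcl10 was highest in the 3 Ctrl samples, between 3.64 and 3.82 FPKM.

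The other 4 genes with a value stayed below 1 FPKM in every sample and are counted here as not expressed at a level that could be compared. Cxcl2, a neutrophil attractant, was at 0.06, 0.06 and 0.12 FPKM in Ctrl, 0.31, 0.06 and 0.12 FPKM in IgE/DNP, and 0.25, 0.06 and 0.06 FPKM in PF samples. Ccl3, a leukocyte attractant, was listed at 0 in the 3 Ctrl samples, at 0.09, 0.09 and 0.19 FPKM in IgE/DNP samples, and at 0.18, 0.36 and 0 FPKM in PF samples. Ccl1, the ligand of CCR8, was above 0 in IgE/DNP replicate 3 (0.16 FPKM) and PF replicate 2 (0.31 FPKM) and was listed at 0 in the other samples. Ccl4, a CC ligand closely related to Ccl3, was above 0 in 1 sample, PF replicate 2, at 0.09 FPKM. Apart from Ccl3 between Ctrl and IgE/DNP, the groups overlapped for all 4 genes. Neighbours in the order of these 4 genes overlapped in each group, except that Cxcl2 lay above the other 3 in Ctrl samples. Ccl5, a T cell attractant, and Cxcl1, a neutrophil attractant, had no value that could be read as a level.

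The levels of Ccl7, Ccl3 and Cxcl2 could be read as whole steps, with the step size of each gene chosen to fit its own values. How often such a step would fit any low gene was not tested. Each Ccl7 value was a whole multiple of 0.0867 FPKM (low values within 0.012 FPKM, all within 0.25 of a step), giving 9, 11 and 7 steps in Ctrl, 27, 17 and 24 steps in IgE/DNP, and 5, 3 and 7 steps in PF samples. The group totals were 27, 68 and 15 steps. Ccl3 and Cxcl2 stood on fewer, with totals of 0, 4 and 6 steps for Ccl3 and of 4, 8 and 6 steps for Cxcl2. Whether 1 step is 1 sequenced fragment was not tested. Related genes such as Ccl2 and Ccl7, or Cxcl1, Cxcl2 and Cxcl3, can share reads, and how the counting divided such reads was not tested.

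To ask which chemokine genes differed after antigen stimulation, IgE/DNP samples were compared with Ctrl samples. Ccl2 was at 218.00, 241.86 and 211.57 FPKM in Ctrl replicates 1 to 3 and at 650.20, 669.14 and 710.35 FPKM in IgE/DNP replicates 1 to 3. Each stimulated sample was therefore above every control sample by a wide margin. The mean rose 3.02-fold, and the log2 fold change of FPKM + 1 was 1.59 (SE 0.0552, adjusted p = 1.16e-06, limma with Benjamini-Hochberg adjustment over all genes tested). The fold changes in these tests are on the log2(FPKM + 1) scale, which understates the change of low genes.

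Ccl7 was at 0.79, 0.95 and 0.60 FPKM in Ctrl and at 2.34, 1.48 and 2.08 FPKM in IgE/DNP samples. The groups did not overlap, and all 3 Ctrl values were below 1 FPKM. The log2 fold change was 0.73 (SE 0.134, limma adjusted p = 0.00535). It was 1.23 with a pseudocount of 0.1 in place of 1, and the ratio of the mean levels was 2.52. Ccl7 passed the filter, at least 1 FPKM in 3 of the 6 samples, only through the IgE/DNP group in which it was high.

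Cxcl10 went the other way. It was at 3.64, 3.80 and 3.82 FPKM in Ctrl and at 2.01, 3.0 and 2.74 FPKM in IgE/DNP samples, so that the groups did not overlap and the stimulated samples were the more spread. The log2 fold change was -0.42 (SE 0.110, limma adjusted p = 0.0227). This call was lost without Ctrl replicate 2 (-0.41, adjusted p = 0.0649), with no filter on low values (adjusted p = 0.0690) and with all 9 samples in the fit (adjusted p = 0.0638, limma).

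Among all 10392 genes tested in this comparison, 29.2% were called in either direction, 14.7% as higher and 14.4% as lower in IgE/DNP samples. Of the 9 chemokine genes, Ccl2 was called higher and Cxcl10 lower, and 6 were not tested because they lay below the filter or had no value. Ccl7 was also called higher, but entered the test only through the group in which it was high, so its call adds no support to a count. With no filter, Ccl3 was also called (0.17 on the log2 scale, limma adjusted p = 0.0345), a difference that rests on 4 steps. In two-sided exact permutation tests of single genes, 21 in all, Ccl2, Ccl3, Ccl7 and Cxcl10 reached p = 0.1, which is the lowest value possible with groups of 3, and so none could pass 0.05. In bulk RNA, a difference in the number of cells that transcribe a gene and a difference in RNA per cell cannot be told apart.

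The promoters of Ccl7 and Cxcl10 are shown as those of the expressed chemokine genes for which the sequence table held an entry, and were searched for motifs of the factors named above. The sequences are the 250 bases before the start of each gene in RefSeq's GRCr8 assembly, a later build than the rn6 assembly used for the expression values. The table held entries for 5 of the 9 chemokine genes (Ccl1, Ccl7, Cxcl1, Cxcl2 and Cxcl10). Capitals mark matches, on either strand, to AP-1 (TGANTCA), NFAT (GGAAA), the NF-kB consensus and a TATA box (TATAAA).
Ccl7, chr10:67513845-67514094, plus strand: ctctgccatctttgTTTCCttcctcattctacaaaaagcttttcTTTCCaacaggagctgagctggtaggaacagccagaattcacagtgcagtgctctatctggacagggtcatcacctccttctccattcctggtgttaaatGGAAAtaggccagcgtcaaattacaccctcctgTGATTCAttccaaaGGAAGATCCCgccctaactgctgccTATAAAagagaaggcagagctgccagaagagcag
Cxcl10, chr14:15988816-15989065, plus strand: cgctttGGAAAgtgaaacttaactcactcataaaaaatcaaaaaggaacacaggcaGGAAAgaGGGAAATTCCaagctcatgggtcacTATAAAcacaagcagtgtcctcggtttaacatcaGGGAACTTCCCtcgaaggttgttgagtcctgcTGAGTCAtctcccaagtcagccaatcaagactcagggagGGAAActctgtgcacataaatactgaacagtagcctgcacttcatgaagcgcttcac

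Counted back from the start site, the Ccl7 window held a TATA box at -34 to -29, an NF-kB match on the reverse strand at -59 to -50, an AP-1 match at -73 to -67 and 3 NFAT matches, the nearest at -106 to -102. The Cxcl10 window held an AP-1 match at -96 to -90, NF-kB matches at -187 to -178 and, on both strands and overlapping each other, at -128 to -118, and 4 NFAT matches. One of these NFAT matches, at -186 to -182, lies inside the first NF-kB match. The letters TATAAA stood at -162 to -157 in Cxcl10. Neither window held the EGR motif GCGNGGGCG. Of the other genes with an entry, Cxcl1 and Cxcl2 had 2 NF-kB matches each, with 3 and 2 NFAT matches, and Ccl1 had 4 NFAT matches. The 2 NF-kB matches overlapped each other in both genes, at -84 to -74 in Cxcl1 and at -74 to -64 in Cxcl2. Of all 33469 RefSeq promoter windows of the same length, 6.34% held the AP-1 motif, 6.33% the NF-kB consensus, 56.9% the NFAT motif, 12.9% the TATA box and 4.29% the EGR motif. A match describes the sequence and does not show that a factor binds there.

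To ask how the chemokine genes stood in stimulated cells pretreated with PF, PF samples were compared with IgE/DNP samples. Ccl2, Ccl7 and Cxcl10 were lower in PF samples. Ccl2 was at 246.65, 276.31 and 295.50 FPKM in PF replicates 1 to 3, each below every IgE/DNP sample, and the IgE/DNP mean was 2.48 times the PF mean (log2 fold change -1.31, SE 0.0630, limma adjusted p = 1.06e-06). Ccl7 was at 0.43, 0.25 and 0.60 FPKM in PF samples, again with no overlap (log2 fold change -1.05, SE 0.140, limma adjusted p = 0.000342), and the ratio of mean levels was 4.61. Cxcl10 was at 1.08, 1.60 and 0.66 FPKM in PF samples, below the lowest IgE/DNP value of 2.01 FPKM (log2 fold change -0.78, SE 0.170, limma adjusted p = 0.00512). Its IgE/DNP mean was 2.32 times its PF mean. With a pseudocount of 0.1 in place of 1, the log2 fold changes of Ccl7 and Cxcl10 were -2.005 and -1.20.

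Of the 10329 genes tested between PF and IgE/DNP samples, 48.8% were called, 18.1% as higher and 30.7% as lower in PF samples. Of the 9 chemokine genes, Ccl2 was called lower beside that broad background, and 6 were not tested. Ccl7 and Cxcl10 were also called lower, but passed the filter through the IgE/DNP group in which they were high. Cxcl10 fell below 1 FPKM in PF replicate 3 (0.66 FPKM). The calls of Ccl7 and Cxcl10 therefore add no support to a count. The split of all calls depended on scaling: 1870 of 5042 calls were higher in PF samples as deposited, 2715 of 5343 after median ratio scaling, and 869 of 5175 after scaling each sample to the mean sum. Ccl2 and Cxcl10 were called lower under each of these scalings.

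PF samples were then compared with Ctrl samples. This comparison shares its samples with the other two, so the 3 fold changes of a gene are not independent of each other. Ccl2 remained slightly above the control level in PF samples, from 246.65 FPKM in the lowest PF sample against 241.86 FPKM in the highest Ctrl sample (log2 fold change 0.28, SE 0.0725, limma adjusted p = 0.00951). This call was lost when PF replicate 1, the only one given 4 h in both label fields, stood alone for its group (0.14, limma adjusted p = 0.208), a fit in which the spread comes from the other group and a lone sample is assumed to vary like it. Cxcl10 was lower than in Ctrl samples without overlap, with a Ctrl mean 3.37 times the PF mean (log2 fold change -1.19, SE 0.149, limma adjusted p = 0.000203). Cxcl10 thus stood highest in Ctrl, lower in IgE/DNP and lowest in PF samples, whereas Ccl2 in PF samples lay close to its Ctrl level. Ccl7 was below the filter in this comparison. Its groups met at 0.60 FPKM, and with no filter its log2 fold change was -0.32 (SE 0.111, limma adjusted p = 0.0677).

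Of the 10361 genes tested between PF and Ctrl samples, 57.7% were called, 23.1% as higher and 34.6% as lower. Of the chemokine genes, Ccl2 was called higher and 7 were not tested. Cxcl10 was called lower, but with PF replicate 3 below 1 FPKM it passed the filter through the Ctrl group. It was high in that group, so its call adds no support to a count. Calls higher in PF samples numbered 2389 of 5975 as deposited, 3162 of 6159 after median ratio scaling and 1576 of 5894 after scaling to the mean sum, and both chemokine calls kept their direction under each.

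A wider list of 27 other chemokine ligands placed these genes in the chemokine output of the cells. Of the 27, 12 were listed without a value and 4 reached a mean of 1 FPKM in a group, namely Pf4, Ppbp, Ccl9 and Ccl24. Pf4, the platelet factor gene (its symbol is not the group label PF), was the most abundant ligand, with 708 ± 44.6, 727 ± 27.6 and 763 ± 67.1 FPKM in Ctrl, IgE/DNP and PF samples, and was not called in any comparison. Ccl2 made up 23.2% ± 1.01 of the summed ligand FPKM in Ctrl, 46.5% ± 1.28 in IgE/DNP and 25.2% ± 2.23 in PF samples (SD, n = 3). Ccl2, Pf4 and Ppbp together made up 98.8%, 99.1% and 98.9%. Ranked among the 18006 genes with a value, Ccl2 lay between place 353 and 411 in Ctrl samples, between 131 and 140 in IgE/DNP samples and between 310 and 384 in PF samples.

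**Figure D2:**
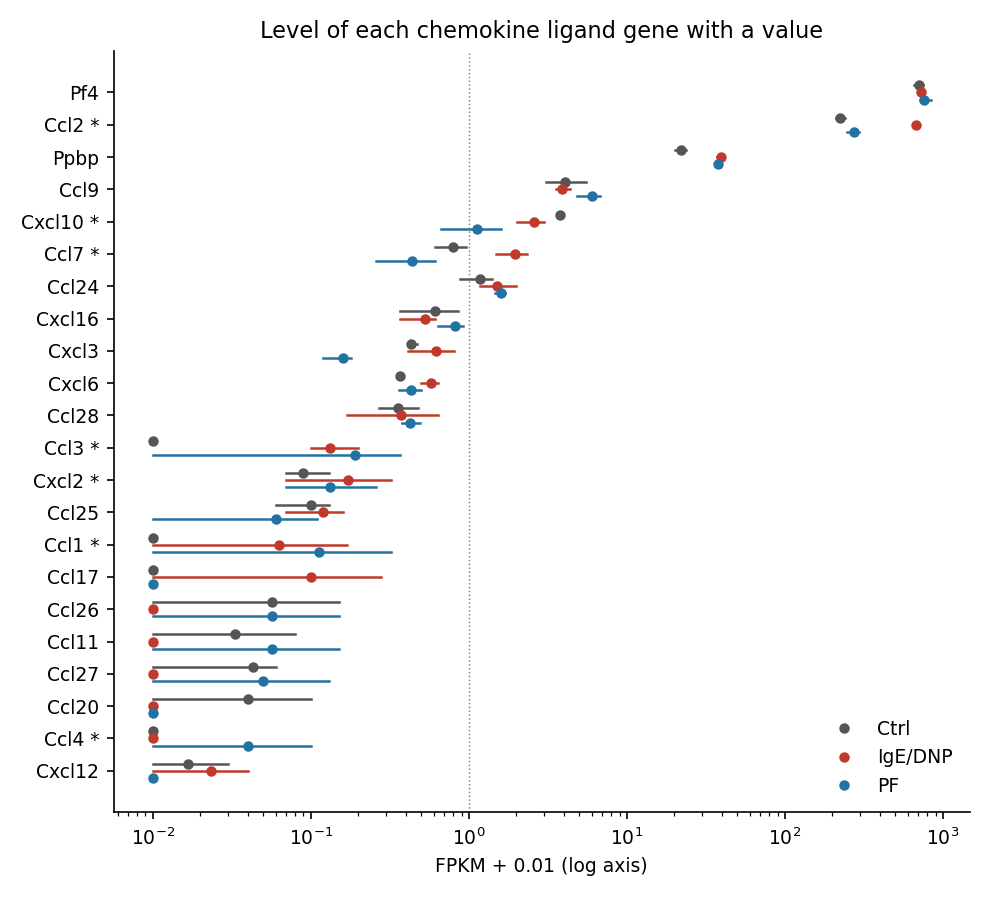
Mean FPKM + 0.01 (log axis) of each chemokine ligand gene with a value, as points per group, with lines from the lowest to the highest of 3 samples. Stars mark the 9-gene set, and the dotted line marks 1 FPKM. Ccl2 lay below Pf4 in every sample and closest to it in IgE/DNP samples, while Ccl1, Ccl3, Ccl4 and Cxcl2 lay below 1 FPKM in every group.

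Ppbp, the precursor of the neutrophil attractant CXCL7, was the only one of the 4 called higher after stimulation, where 14.7% of all genes tested were. It was at 23.83, 22.03 and 20.23 FPKM in Ctrl, at 41.36, 37.08 and 39.66 FPKM in IgE/DNP, and at 37.39, 38.21 and 37.31 FPKM in PF samples. The IgE/DNP and PF samples both lay above Ctrl without overlap (log2 fold change 0.81, SE 0.0649, adjusted p = 0.000139, and 0.75, SE 0.0594, adjusted p = 1.81e-05, limma) and overlapped each other. PF against IgE/DNP was not called (-0.06, 95% interval -0.165 to 0.0410, limma adjusted p = 0.288), beside -1.31 (95% interval -1.45 to -1.17) for Ccl2 in the same samples. Ccl9, a ligand of CCR1, was higher in PF than in IgE/DNP samples (6.05 ± 1.04 against 3.87 ± 0.455 FPKM, log2 fold change 0.53, limma adjusted p = 0.00566) and in PF than in Ctrl samples (0.49, limma adjusted p = 0.0408), although the last call was lost when any of 4 single samples was left out. The eotaxin gene Ccl24 was at 1.18 ± 0.272, 1.5 ± 0.422 and 1.58 ± 0.111 FPKM and was not called. The median log2 fold change of the 4 genes was 0.12 between IgE/DNP and Ctrl, 0.06 between PF and IgE/DNP and 0.37 between PF and Ctrl, beside medians of -0.01, -0.04 and -0.05 over all genes tested.

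The chemokine receptors were then looked up. Of 23 chemokine receptor genes, Ccr2 had no row, Cxcr3 (the Cxcl10 receptor) and Ccr1 were among 6 listed without a value, and 5 reached a mean of 1 FPKM in a group. Ccr3, which also binds Ccl7, was at 0.05 FPKM or less in every sample. Cxcr4, the receptor of Cxcl12, fell from 90.7 ± 4.16 FPKM in Ctrl to 35.9 ± 1.13 FPKM in IgE/DNP samples (log2 fold change -1.31, SE 0.0437, limma adjusted p = 1.04e-06) and stood at 31.9 ± 1.61 FPKM in PF samples. Ackr3, the scavenging receptor for the same ligand, was at 138 ± 9.37, 77.4 ± 4.06 and 99.6 ± 3.65 FPKM. It fell after stimulation by 0.83 on the log2 scale and was 0.36 higher in PF than in IgE/DNP samples (adjusted p = 6.36e-05 and 0.000255, limma). Ccrl2, a chemokine-like receptor that presents chemerin, was at 5.16 ± 0.243 and 6.05 ± 0.560 FPKM in Ctrl and IgE/DNP samples, without a call, and at 1.83 ± 0.240 FPKM in PF samples, where it was called lower than in IgE/DNP samples (-1.32, limma adjusted p = 8.1e-06). Ackr1, which binds many inflammatory chemokines including Ccl2, was at 15.9 ± 1.34, 14.9 ± 1.89 and 13.6 ± 0.986 FPKM, and the fractalkine receptor gene Cx3cr1 was at 1.37 ± 0.210, 1.03 ± 0.278 and 0.387 ± 0.133 FPKM. Over the receptors tested, 0 of 5 were called higher and 2 lower in IgE/DNP against Ctrl (median -0.23), 1 of 4 higher and 2 lower in PF against IgE/DNP (median -0.14), and 5 lower in PF against Ctrl. Of all genes tested, 29.2%, 48.8% and 57.7% were called in these comparisons. Cx3cr1 passed the filter in the last comparison only through the Ctrl group in which it was high, so that count is no support for the list, and the Ackr1 call was lost when any of 4 single samples was left out. The Cxcr4 call between PF and IgE/DNP (-0.17) was lost without IgE/DNP replicate 1 (adjusted p = 0.0615), after median ratio scaling (-0.11, adjusted p = 0.0756) and with PF replicate 1 alone (-0.12, adjusted p = 0.129, limma), where the spread again comes from the other group.

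Cytokine genes that activated MCs transcribe showed the Ccl2 pattern in part. Of 16 such genes, 8 could be tested in each comparison. Between IgE/DNP and Ctrl, 6 were called higher and 0 lower (median 0.94), where 14.7% and 14.4% of all genes tested were called. The list was chosen with earlier results of these data known, so its counts describe these genes only. The T-helper 2 cytokine genes Il4 (2.33 ± 0.118 to 12.3 ± 0.514 FPKM) and Il13 (4.16 ± 0.364 to 12.6 ± 1.58 FPKM) and the MC growth factor gene Il3 (4.18 ± 0.285 to 20.1 ± 2.04 FPKM) rose by log2 fold changes of 2.00, 1.40 and 2.02. Lif, a cytokine of the IL6 family, rose from 112 ± 9.35 to 307 ± 5.20 FPKM, and Csf1, the macrophage growth factor, from 324 ± 15.8 to 450 ± 6.09 FPKM. Tgfb1 had 187 ± 8.41 and 215 ± 3.60 FPKM and was also called, whereas Tnf (6.37 ± 1.17 and 8.29 ± 0.884 FPKM) and Vegfa (32.3 ± 1.79 and 28.4 ± 2.24 FPKM) were not.

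Between PF and IgE/DNP, 5 of the 8 cytokine genes were called lower and 2 higher (median -0.73), beside 30.7% and 18.1% of all genes. Il4, Csf1, Il3, Il13 and Lif fell by 1.59, 1.44, 1.34, 1.07 and 0.39 on the log2 scale, to 3.49 ± 0.856, 165 ± 2.54, 7.33 ± 0.660, 5.5 ± 0.386 and 234 ± 10.5 FPKM. Tnf rose from 8.29 ± 0.884 to 17.1 ± 3.12 FPKM (0.95, SE 0.117, limma adjusted p = 0.000214), and Tgfb1 was called higher by 0.15 at 239 ± 12.2 FPKM, a call lost with samples scaled to the mean sum (0.05, limma adjusted p = 0.318). Vegfa, at 31.3 ± 2.30 FPKM in PF samples, was not called. Between PF and Ctrl, 6 were called higher and 1 lower (median 0.39), beside 23.1% and 34.6% of all genes. The Il4 call (0.41) was lost when any of 4 single samples was left out, and fell to 0.09 with PF replicate 1 alone (limma adjusted p = 0.575). Csf1 was below its Ctrl level in PF samples (log2 fold change -0.97), while Ccl2, Il3 and Il13 were above theirs (0.28, 0.68 and 0.33), the Il13 call being lost with PF replicate 1 alone (0.26, limma adjusted p = 0.123).

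**Figure D3:**
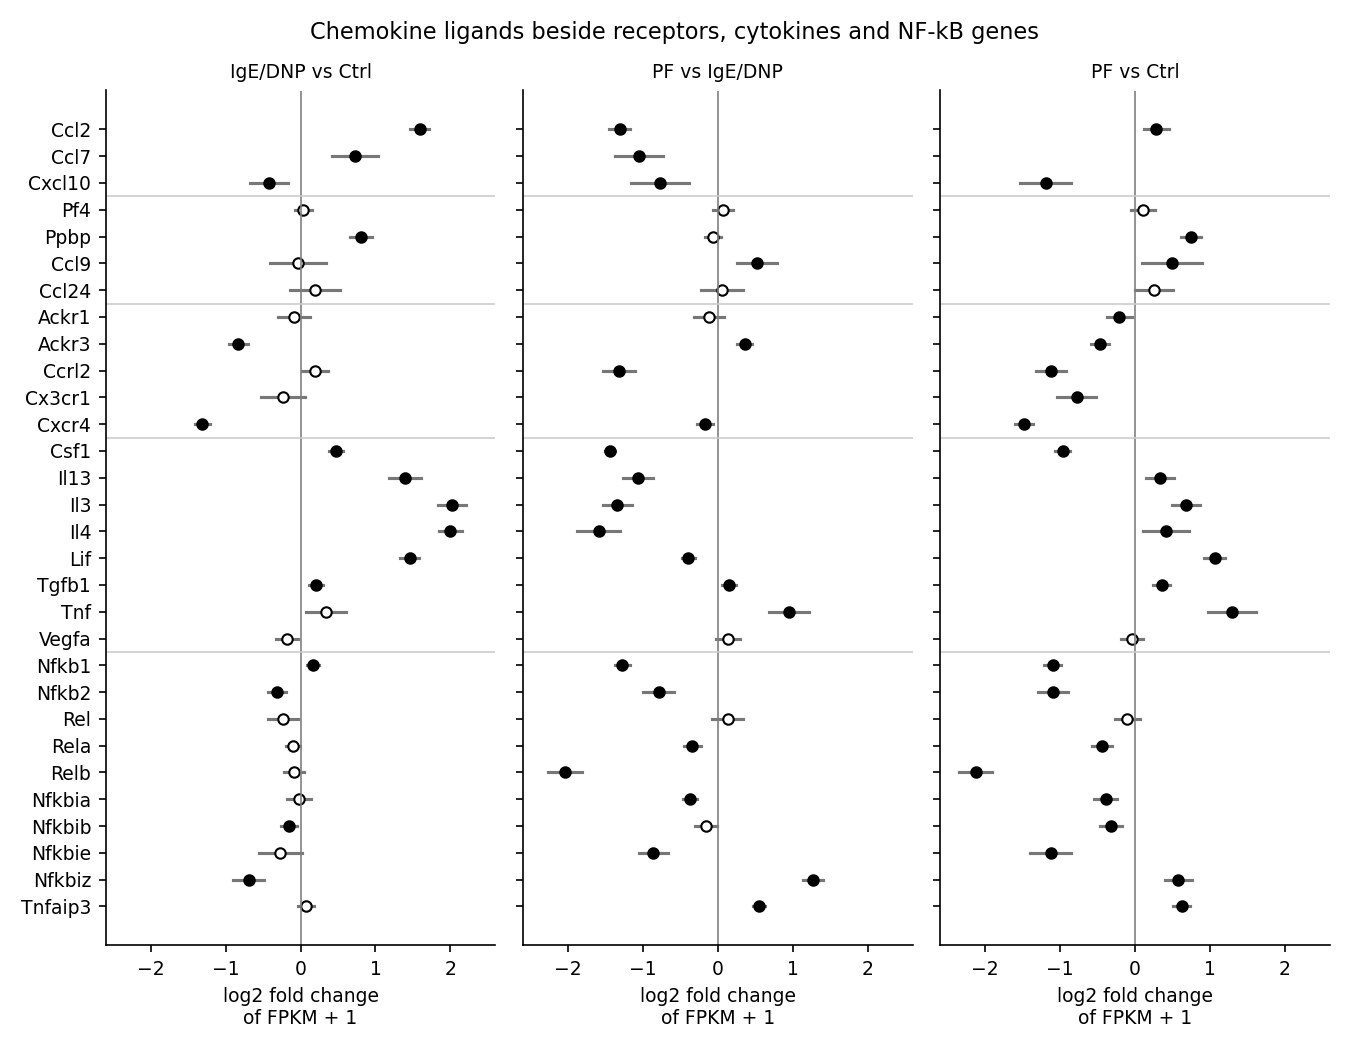
Log2 fold change of FPKM + 1 (x axis) with its 95% interval in the 3 comparisons, for the chemokine genes tested, other ligands, receptors, cytokines and NF-kB genes, separated by grey lines. Filled points had a limma adjusted p of at most 0.05, and a missing point was below the filter. Ccl2, Ccl7 and Cxcl10 all lay to the left of 0 in PF against IgE/DNP, whereas Tnf, Nfkbiz and Tnfaip3 lay to the right.

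Genes of the NF-kB pathway, whose motif stands in the Ccl7 and Cxcl10 promoters above, were listed next. No promoter entry was held for Ccl2, and a link between these genes and the chemokine differences was not tested. Of 11 genes, 10 could be tested. Between IgE/DNP and Ctrl, 1 was called higher and 3 lower (median -0.13), beside 14.7% and 14.4% of all genes: Nfkb1, a subunit gene, was at 44.5 ± 0.980 and 50.2 ± 0.862 FPKM (log2 fold change 0.17), and Nfkbiz, an atypical inhibitor that also acts as a co-activator, was at 37.0 ± 4.43 and 22.4 ± 1.76 FPKM (-0.69). The third gene called lower beside Nfkb2 (16.5 ± 0.244 and 13.1 ± 0.769 FPKM) was Nfkbib (41.5 ± 1.64 and 37.1 ± 1.61 FPKM, -0.16), a call lost in 9 of 14 alternatives, among them 4 that left out a single sample and the replicate block (adjusted p = 0.0706, limma). Rel, Rela and Relb were not called. Between PF and IgE/DNP, 2 were called higher and 6 lower (median -0.36), where 18.1% and 30.7% of all genes tested were called. Relb, a subunit gene of the non-canonical pathway, fell from 6.79 ± 0.299 to 0.907 ± 0.225 FPKM (-2.04, SE 0.0982, limma adjusted p = 1.06e-06), and Nfkb1 fell to 20.2 ± 1.07 FPKM (-1.27). Relb passed the filter through the IgE/DNP group in which it was high, with 1 of 3 PF samples above 1 FPKM, so its call adds no support to the count, and the same holds for Relb between PF and Ctrl. Nfkbiz rose to 55.5 ± 2.09 FPKM (1.27), and Tnfaip3, the A20 deubiquitinase gene that restrains the pathway, rose from 107 ± 2.78 to 158 ± 3.71 FPKM (0.55). The subunit genes Nfkb2 (13.1 ± 0.769 to 7.23 ± 1.03 FPKM) and Rela (36.7 ± 0.388 to 28.9 ± 2.06 FPKM) and the inhibitor genes Nfkbia (218 ± 10.8 to 168 ± 3.91 FPKM) and Nfkbie (5.77 ± 0.620 to 2.73 ± 0.131 FPKM) were the other genes called lower. Rel (15.3 ± 1.89 and 16.9 ± 1.51 FPKM) and Nfkbib (37.1 ± 1.61 and 33.1 ± 3.0 FPKM) were not called. Between PF and Ctrl, 2 were called higher and 7 lower (median -0.41), beside 23.1% and 34.6% of all genes.

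Of 9 genes for NFAT factors and the calcineurin that activates them, 8 could be tested. Between IgE/DNP and Ctrl, Ppp3cb, a catalytic calcineurin subunit gene, was called higher (0.74) and Nfatc1 lower (-0.32), with a median of 0.01. Between PF and IgE/DNP, 1 was called higher and 4 lower (median -0.20), among them Nfatc1, which fell from 20.0 ± 0.216 to 10.5 ± 0.0981 FPKM (-0.87), and Rcan1, a calcineurin inhibitor gene that is itself an NFAT target, which fell from 5.08 ± 0.423 to 3.39 ± 0.469 FPKM (-0.47). Nfatc2 (6.76 ± 0.129 to 4.83 ± 0.0808 FPKM) and the calcineurin gene Ppp3ca (66.4 ± 3.03 to 47.4 ± 1.43 FPKM) were the other genes called lower, and the regulatory subunit gene Ppp3r1 (68.7 ± 2.16 to 75.8 ± 3.49 FPKM) was called higher, a call lost without IgE/DNP replicate 2 or PF replicate 3 and with samples scaled to the mean sum (0.04, limma adjusted p = 0.476). Ppp3cb (15.5 ± 0.231 and 17.8 ± 1.97 FPKM), Nfatc3 (29.9 ± 3.61 and 30.4 ± 2.24 FPKM) and Nfat5 (21.8 ± 1.18 and 21.9 ± 2.5 FPKM) were not called. Between PF and Ctrl, 1 was called higher and 4 lower (median -0.18). Over all genes tested, 14.7%, 18.1% and 23.1% were called higher in these comparisons, in the same order, and 14.4%, 30.7% and 34.6% lower.

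The genes whose profile over the 9 samples was most like that of each expressed chemokine were found by the root mean square (RMS) difference of log2(FPKM + 1) values, each centred on its own mean, among 10503 genes. For Ccl2 they were Rabgef1, Map9, Zfp36l1, Il13 and Spry4, with RMS differences of 0.147, 0.147, 0.152, 0.158 and 0.189. Rabgef1 (Rabex-5) and Spry4 are known as restraints on receptor signaling, and Zfp36l1 encodes an mRNA decay factor. For Ccl7 they were Sla, Dusp4, Dcun1d3, Myadm and Medag (0.137 to 0.165), of which Sla encodes an adaptor that dampens immune receptor signaling and Dusp4 a MAP kinase phosphatase. For Cxcl10 they were Tbcc, Swsap1, Calcoco1, LOC100911825 and Orai2 (0.109 to 0.152), and Orai2 encodes a calcium channel subunit of the plasma membrane. Pearson's r of these genes with their chemokine was between 0.939 and 0.997 over 9 samples that fall into 3 groups, and is a description only.

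**Figure D4:**
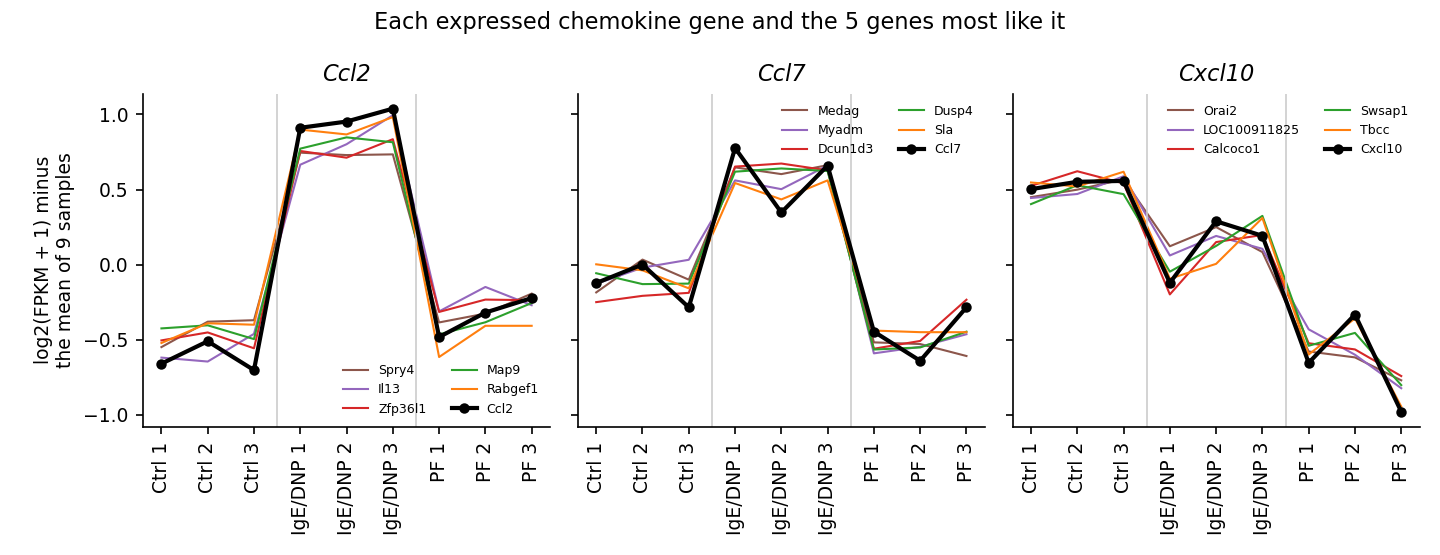
Log2(FPKM + 1) minus the mean of the 9 samples (y axis) in each sample, for Ccl2, Ccl7 and Cxcl10 (black) and the 5 genes most like each (colors). The Ccl2 and Ccl7 panels peak in IgE/DNP samples, while the Cxcl10 panel steps down from Ctrl to IgE/DNP to PF.

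Chemokines are also products of other leukocytes and of stromal cells, so markers of those cells were summed in each sample. Of 7 macrophage markers, all had a value, and their sum was 25.6 to 27.2 FPKM in Ctrl, 32.7 to 36.4 FPKM in IgE/DNP and 27.6 to 30.3 FPKM in PF samples. Nearly all of it was the integrin gene Itgam, and the sum without it was between 1.52 and 2.62 FPKM. Of the other 6, Cd68 was at 0.57 to 1.65 FPKM, Cd14 at 0.48 to 0.85 FPKM and Csf1r at 0.17 to 0.44 FPKM. Adgre1 (at most 0.06 FPKM), Lyz2 (at most 0.06 FPKM) and Mrc1 (at most 0.03 FPKM) were at or near 0 in every sample. Of the T cell markers, Cd3e was at 6.74 to 9.52 FPKM, Cd3g at 0.11 to 0.69 FPKM, and Cd3d, Cd4 and Cd8a at 0.16 FPKM or less. Of the 4 endothelial markers, Cdh5 was listed without a value, and Vwf and Kdr were at 0.02 FPKM or less. Pecam1 was at 43.65 to 48.31 FPKM in PF and 55.08 to 61.78 FPKM in the other samples. The 5 fibroblast markers summed to at most 0.63 FPKM. Of the 3 B cell markers, Ms4a1 was listed without a value, and the other 2 summed to at most 1.15 FPKM. The summed MC markers without Srgn were 2854 to 2883 FPKM in Ctrl, 2667 to 2696 FPKM in IgE/DNP and 2777 to 2820 FPKM in PF samples. These sums hold markers that were called in opposite directions: of the 13, 2 were higher and 5 lower between IgE/DNP and Ctrl, 3 higher and 4 lower between PF and IgE/DNP, and 4 higher and 6 lower between PF and Ctrl. Of all genes tested, 14.7%, 18.1% and 23.1% were called higher and 14.4%, 30.7% and 34.6% lower in these comparisons. As examples chosen after their values were seen, the protease gene Mcpt8 was at 18.6 ± 2.02, 9.67 ± 0.612 and 7.61 ± 2.79 FPKM in Ctrl, IgE/DNP and PF samples, the transcription factor gene Mitf at 16.8 ± 0.97, 24.9 ± 1.44 and 20.8 ± 0.387 FPKM, and Gata1 at 59.3 ± 3.22, 56.8 ± 1.22 and 34.3 ± 1.44 FPKM. The part of the markers in the chemokine differences was not tested.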

How the data were processed

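RNA of 9 RBL-2H3 samples (3 Ctrl, 3 IgE/DNP, 3 PF) was sequenced by the study. Per the submitters' processing notes and the methods, the authors mapped reads with HISAT2 2.0.4 to rn6 and quantified genes with Bowtie2 2.2.5 and RSEM 1.2.12. The values deposited by the authors, 1 per gene and sample, have no named unit and were read as FPKM, since they have decimals and sum to different totals. FPKM holds no depth, so counting error is unknown and precision rests on the 3 samples per group. Samples were joined by gene identifier, and 20484 of 38490 rows had no value.

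The members and gene lists were chosen with earlier results of these data known. Each pair of groups was tested on its own 6 samples with limma 3.58.1 in R 4.3.3 (lmFit, eBayes with trend) on log2(FPKM + 1). A gene was tested where 3 or more of the 6 samples reached 1 FPKM, with Benjamini-Hochberg adjustment over all genes tested and a threshold of 0.05. The script was tested on simulated data. All 9 members are named, and of the ligand, receptor, cytokine, NF-kB and NFAT lists the genes with a mean of at least 1 FPKM in a group. Cell type markers are given as counts and sums. Standard errors are limma's. Exact permutation tests used scipy 1.17.1. Alternatives were a pseudocount of 0.1, no filter, all 9 samples in the fit, a replicate block, 2 scalings, limma without trend, each sample left out, PF replicate 1 alone and a threshold of 0.01. Promoters came from RefSeq (GRCr8). Protein sequences were not used here.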

Additional observations from a re-analysis of the deposited data

How the results depend on the processing

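All 8 tested chemokine fold changes kept their direction under every alternative that could be fitted. Those of Ccl7, and those of Cxcl10 that involve PF samples, passed the filter through the group in which the gene was high. The count of 8 is therefore no support for the set. Ccl2 ranged from 1.55 to 1.65 between IgE/DNP and Ctrl and from -1.45 to -1.24 between PF and IgE/DNP, always with a limma adjusted p of at most 7.99e-05. Cxcl10 between IgE/DNP and Ctrl ranged from -0.54 to -0.30 and was called in 10 of 14 alternatives. A threshold of 0.01 reduced the genes called between IgE/DNP and Ctrl to 1469 and ended that Cxcl10 call (adjusted p = 0.0227). With PF replicate 1 alone, 1 chemokine gene (Cxcl10) was called between PF and Ctrl, where Ccl2 was lost. Ccl7 was not tested when an IgE/DNP sample was left out, since 2 samples then reached 1 FPKM. Leaving out each sample gave 2099 to 2736, 4138 to 4796 and 5147 to 5541 genes called in the 3 comparisons, beside 3031, 5042 and 5975.

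Correlations of deviations between same-numbered samples were -0.06 to 0.04 for IgE/DNP against Ctrl and -0.07 to 0.01 for PF against IgE/DNP. These showed no pairing by replicate number. For PF against Ctrl they were small but all positive (0.08 to 0.18), so pairing there is not settled. With the replicate block, 2697, 4675 and 6009 genes were called, no chemokine call changed, and of the listed genes Nfkbib between IgE/DNP and Ctrl lost its call (adjusted p = 0.0706, limma).

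Of 67 calls for listed genes, 58 held in every alternative. Single left-out samples ended 6 of the other 9: Nfkbib between IgE/DNP and Ctrl (without Ctrl replicate 1 or 2 or IgE/DNP replicate 1 or 2, adjusted p up to 0.112), Ackr1 between PF and Ctrl (without Ctrl replicate 1 or 2 or PF replicate 2 or 3, up to 0.136), Ccl9 between PF and Ctrl (without Ctrl replicate 1 or 3 or PF replicate 1 or 2, up to 0.117), Il4 between PF and Ctrl (without Ctrl replicate 2 or 3 or PF replicate 2 or 3, up to 0.0899), Cxcr4 between PF and IgE/DNP (without IgE/DNP replicate 1, 0.0615) and Ppp3r1 between PF and IgE/DNP (without IgE/DNP replicate 2 or PF replicate 3, up to 0.0861, limma). Tgfb1 between PF and IgE/DNP lost its call with samples scaled to the mean sum (0.05, limma adjusted p = 0.318), as did Ppp3r1 (0.04, adjusted p = 0.476). Il13 and Nfkbib between PF and Ctrl lost theirs with PF replicate 1 alone (0.26 and -0.18, adjusted p = 0.123 and 0.0821, limma), a fit whose spread comes from the other group. Of 37 uncalled results for listed genes, 13 changed sign and 11 were called under some alternative. The causes were not tested.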

Other observations

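Cxcl3, a neutrophil attractant closely related to Cxcl1 and Cxcl2, was below 1 FPKM in all 9 samples and was not tested, and it is described here after its values were seen. It was at 0.46, 0.40 and 0.40 FPKM in Ctrl, at 0.63, 0.40 and 0.80 FPKM in IgE/DNP and at 0.11, 0.17 and 0.17 FPKM in PF samples. The PF samples lay below all others, while Ctrl and IgE/DNP samples met at 0.40 FPKM. Cxcl6, another ligand of CXCR2, was at 0.35, 0.37 and 0.35 FPKM in Ctrl, at 0.49, 0.63 and 0.59 FPKM in IgE/DNP and at 0.49, 0.35 and 0.42 FPKM in PF samples, so that IgE/DNP and Ctrl did not overlap.

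Csf2, the gene of the granulocyte and macrophage growth factor GM-CSF, was listed at 0 in the 3 Ctrl samples, at 1.32, 0 and 0.33 FPKM in IgE/DNP samples and at 0.16 FPKM in each PF sample, so the single value above 1 FPKM belonged to IgE/DNP replicate 1.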
